A study of Mus musculus with 56 samples.

Results

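The 8 genes described here carry out polyamine synthesis or control its first enzyme. They are the synthesis enzymes Odc1, Amd1, Srm and Sms, the antizymes Oaz1 and Oaz2, and the antizyme inhibitors Azin1 and Azin2. They were taken by name from the 47937 genes listed in each of 2 count tables, and all 8 passed the filter on low counts in both. Naive CD4+ T cells were taken from spleen and lymph nodes of C57BL/6 mice by negative selection, a step that depletes other cell types. They were activated through CD3 and CD28 with IL-2 and polarized in culture toward TH1, TH2, TH17 or Treg cells until day 4. The Odc table compares cells from Odc flox/flox mice that carry Cre under the CD4 promoter (labelled ODC_KO, here Odc KO) with Cre-negative cells (ODC_WT), with 4 libraries a group and 3 in TH2 Odc KO (replicates 2, 3 and 4). The Dohh table makes the same comparison for Dohh flox/flox mice (DOHH_KO and DOHH_WT), with 3 libraries a group. The WT groups of the tables are separate, and no age or sex was given in the labels. Cre under the CD4 promoter is active from the thymus on, in CD8 as well as CD4 T cells, and a floxed allele is lost only in cells in which Cre was active.

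Odc1, ornithine decarboxylase, converts ornithine to putrescine, the step that limits the pathway. Amd1, S-adenosylmethionine decarboxylase, makes the aminopropyl donor with which Srm, spermidine synthase, turns putrescine into spermidine and Sms, spermine synthase, turns spermidine into spermine. Antizymes bind ornithine decarboxylase, carry it to the proteasome without ubiquitin and restrain polyamine uptake. Their messenger RNA is translated in full only when the ribosome slips forward by a base, a shift that polyamines promote, so that abundant polyamines shut off their own supply. Azin1 and Azin2 resemble ornithine decarboxylase, lack its activity and hold antizyme away from the enzyme. Spermidine is also the substrate from which Dhps and Dohh form hypusine, a modified lysine found in the translation factor eIF5A.

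The sites at which the ribosome changes frame on the 2 antizyme messages are shown because antizyme production turns on this step, which RNA counts cannot show. Each is a window of 30 bases on the plus strand of GRCm38, taken from the GENCODE transcripts, with the stop codon of the first frame in capitals. For Oaz1 the window is chr10:80828280-80828309, in a coding exon, with 68 codons before the shift and 159 after it. For Oaz2 it is chr9:65686257-65686286, also coding, with 32 and 157 codons. The 2 windows are identical at 28 of 30 bases.
Oaz1: cctcggtggtgctccTGAtgtccctcaccc
Oaz2: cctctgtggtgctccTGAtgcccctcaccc

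The floxed part of Odc1 is exons 9 to 11 (chr12:17549424-17550077), 491 of the 2208 bases of transcript Odc1-201. Without them exon 8 would join exon 12, and the reading frame would run for 269 codons in place of 461, of which the last 19 are read in another frame. The last 30 bases of exon 8 and the first 30 of exon 12, both on the plus strand of GRCm38 and both coding, are shown because the joint between them is what a deleted transcript would hold.
Odc1 exon 8 end: tctgaagatacaaagcttaaatttgaagag
Odc1 exon 12 start: gcaactcatgaagcagatccagagccatgg

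The counts are for whole genes, so the loss of these exons cannot be read from them. If only the reads of exons 9 to 11 were lost, the count of Odc1 would drop by 0.36 on the log2 scale, and the measured differences were 0.26, -0.20, -0.40 and 0.20 in TH1, TH2, TH17 and Treg cells. Dohh, the other targeted gene, did not fall: it had 31.5 to 45.9 CPM (counts scaled to library size, here by the TMM method) in the 12 WT libraries and 45.2 to 147.7 CPM in the 12 libraries labelled Dohh KO. 47.46% of the exon length of Dohh is shared with another gene model on its strand, and among the members only Oaz1 (2.89%, same strand) and Azin1 (5.72%, opposite strand) overlap another gene. Neither targeted gene therefore checked the labels, and the deleted groups are described as labelled. By immunoblot, the study reports loss of ODC in T cells of the Odc-deleted mice. It also reports less hypusinated eIF5A in T cells that lack DOHH.

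Total counts were 5905374 to 9145214 in the 31 libraries of the Odc table and 6572148 to 12576933 in the 24 of the Dohh table, and the lowest count of any member was 15, of Azin2. The summed TH1, TH2 and TH17 markers were highest in the WT libraries of their own subset in both tables. They had 1773 to 3287, 652 to 1013 and 2157 to 2370 CPM in the Odc table. The Dohh table gave 1077 to 1293, 501 to 558 and 489 to 616 CPM. The 4 Treg markers were Foxp3, Il2ra, Ikzf2 and Ctla4. In the Odc table their sum was not higher in Treg cells (3535 to 4202 CPM) than in the other WT subsets (3924 to 5447 CPM). In the Dohh table the Treg markers had 2126 to 2698 CPM in Treg cells, above TH17 cells (1990 to 2033 CPM). Those Treg libraries overlapped TH2 libraries (2310 to 2690 CPM) and lay below TH1 libraries (2875 to 3245 CPM). Among the Treg markers, Il2ra had by far the highest maximum count over WT libraries in both tables, so it can carry the sum. Foxp3 was not compared among subsets on its own. Whether the Treg cultures were polarized therefore cannot be read from these sums. The 8 CD4 T cell markers summed to 2482 to 4298 CPM (median 3797) in WT and 1963 to 3753 CPM (median 2738) in Odc KO libraries, and to 3279 to 4334 CPM (median 3995) in WT and 1457 to 3059 CPM (median 2051) in Dohh KO libraries, with 3 to 6 of 8 falling in each Odc comparison and 4 to 5 of 8 in each Dohh comparison. Markers of other cells moved with genotype: the 8 basophil and mast cell markers summed to 3.47 to 45.9 CPM (median 20.9) in WT and 23.1 to 329 CPM (median 74.1) in Odc KO libraries and to 1.98 to 23.7 CPM (median 8.54) in WT and 45.7 to 1228 CPM (median 346) in Dohh KO libraries, with 6 to 7 of 8 rising in each Odc comparison and 7 to 8 of 8 in each Dohh comparison. The 6 myeloid markers summed to 7.55 to 44.3 CPM (median 19.7) in WT and 6.33 to 334 CPM (median 38.1) in Odc KO libraries and to 20.2 to 35.3 CPM (median 24.4) in WT and 6.44 to 4519 CPM (median 99.0) in Dohh KO libraries, with 0 to 4 rising in an Odc comparison, 2 to 5 in a Dohh comparison and Itgam at 0 in all libraries of the Dohh table. The 4 B cell markers summed to 1.76 to 60.5 CPM (median 5.01) in WT and 3.49 to 415 CPM (median 84.4) in Odc KO libraries and to 0.729 to 29.9 CPM (median 3.62) in WT and 0.221 to 28.6 CPM (median 3.51) in Dohh KO libraries, with 0 to 4 rising in an Odc comparison and 0 in each Dohh comparison. The 4 CD8 T and NK cell markers summed to 8.68 to 41.8 CPM (median 18.2) in WT and 7.11 to 232 CPM (median 41.5) in Odc KO libraries and to 12.9 to 26.9 CPM (median 21.0) in WT and 7.77 to 342 CPM (median 61.3) in Dohh KO libraries. The 4 erythroid markers summed to at most 1.55 CPM in any library of the Odc table and to at most 0.488 CPM in WT and 0.525 to 28.1 CPM in Dohh KO libraries. Of all genes tested, 25.6% to 32.9% rose and 22.2% to 29.3% fell in an Odc comparison, and 23.8% to 28.4% rose and 21.5% to 25% fell in a Dohh comparison. Genes of cell division moved with genotype too: Mki67, Top2a, Ccnb1 and Cdk1 summed to 2405 to 2612 CPM in WT and 1364 to 1762 CPM in Odc KO libraries of Treg cells, with 3 of 4 falling, while 0 to 2 rose and 0 fell in the other Odc comparisons. Their sums were 808 to 878 and 1516 to 1622 CPM in Treg cells and 576 to 747 and 793 to 1552 CPM in TH1 cells of the Dohh table, with 4 of 4 rising in both, and 1 of 4 rose in TH2 and in TH17 cells. No marker of basophils, mast cells or B cells was at 0 in all libraries of a genotype, and the part of other cells and of cell division in the results was not tested. In RNA from whole cultures, fewer cells of a type and less RNA per cell cannot be told apart.

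In WT cells Odc1 and Oaz1 were the 2 most abundant members and Azin2 the least in every subset but TH2. Compared per kilobase of exon (GENCODE vM21 on GRCm38, the build of all coordinates given here), the scale on which genes can be set beside each other, the median level over the 16 WT libraries of the Odc table was 146 CPM per kb for Odc1 and 99.8 for Oaz1. The other medians on this scale were 26.9 for Srm, 16.3 for Azin1, 15.3 for Oaz2, 9.48 for Amd1, 8.93 for Sms and 2.64 for Azin2. Odc1 and its antizyme Oaz1 thus stood far above the genes that use putrescine, and Oaz2 was the lesser antizyme. The Dohh table gave medians of 155 for Odc1 and 147 for Oaz1, but levels are not compared between the tables, which were not counted alike: 275 genes had 500 or more counts, summed over libraries, in the Odc table and 5 or fewer in the Dohh table, and 13 genes the reverse.

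**Figure D1:**
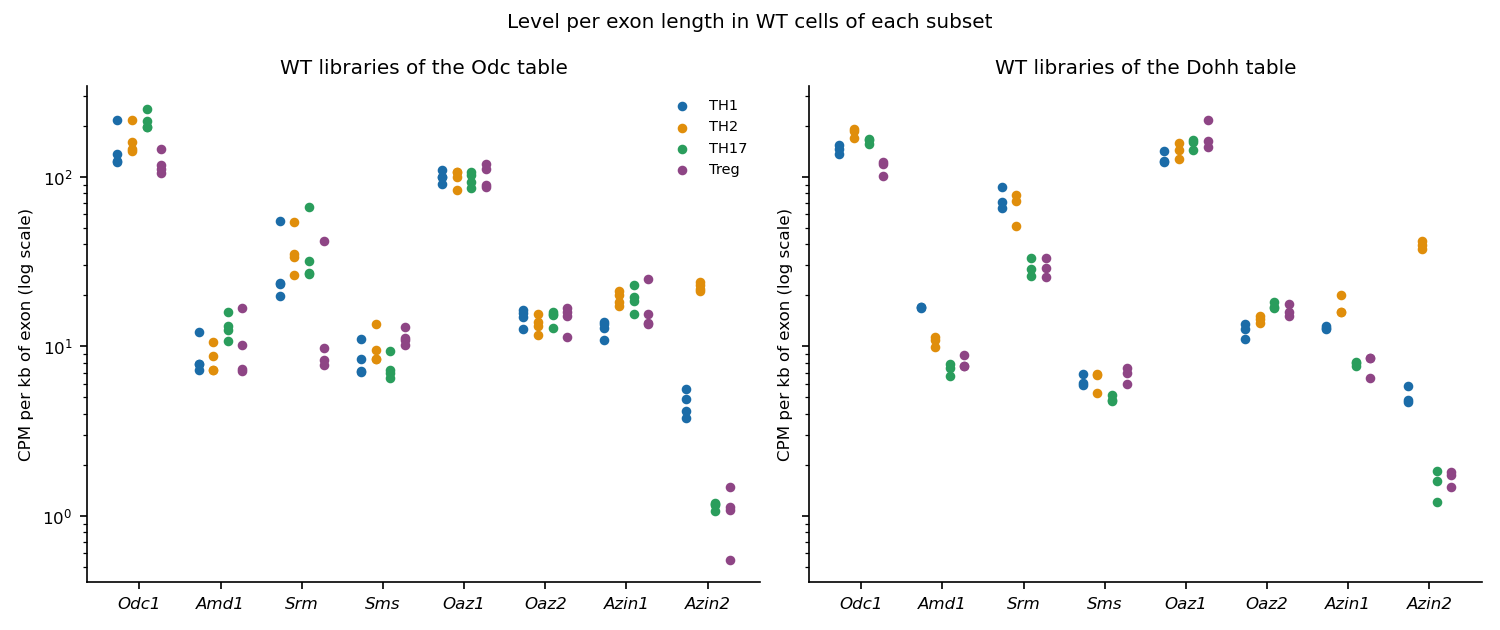
Level of each gene in every WT library, in CPM per kb of exon on a log scale, by subset (color) and table (panel). Odc1 and Oaz1 are highest, and Azin2 spans more than the other members, from 0.55 to 24.0 CPM per kb in the Odc table.

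The clearest difference among WT subsets was that of Azin2 (chr4:128930233-128962442), an antizyme inhibitor known mostly from brain and testis, which was high in TH2 cells. In the Odc table its WT libraries had 85.1, 93.0, 96.6 and 87.8 CPM in TH2 cells and 16.8, 15.2, 19.6 and 22.7 CPM in TH1 cells. Levels in TH17 cells were 4.76, 4.68, 4.30 and 4.76 CPM and those in Treg cells 4.55, 4.34, 5.99 and 2.21 CPM. TH2 libraries lay above all others and TH1 libraries above TH17 and Treg libraries, which overlapped. The WT libraries of the Dohh table gave the same order of TH2 over TH1 over the other 2 subsets, with 168, 159 and 151 CPM in TH2, 23.4, 18.9 and 19.3 in TH1, 7.43, 6.44 and 4.85 in TH17 and 5.94, 7.29 and 6.99 in Treg cells. The TH2 mean was 21.2 times the lowest subset mean in the Odc table and 25.6 times in the Dohh table (adjusted p = 2.67e-17 and 7.34e-13 for any difference among the 4 subsets, from edgeR's quasi-likelihood test adjusted over all genes by the Benjamini-Hochberg method).

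Among the 4 subsets, 5 of the 8 members differed in the WT cells of the Odc table, where 71.1% of all genes tested did, and 5 of 8 in those of the Dohh table, where 40.1% did. Azin1 (chr15:38487427-38519266), the antizyme inhibitor found in most tissues, differed in both tables (adjusted p = 0.00538 and 2.77e-05). In the Odc table its means were level in TH2 and TH17 cells (120.0 ± 11.2 and 120.0 ± 19.7 CPM (SD, n = 4)) and lowest in TH1 cells (80.0 ± 8.27 CPM (SD, n = 4)), and neighbouring subsets overlapped. In the Dohh table it was highest in TH2 cells (109 ± 15.0 CPM (SD, n = 3)), apart from all other subsets, and lowest in Treg cells (49.2 ± 7.45 CPM (SD, n = 3)), which overlapped TH17 cells. Amd1 (chr10:40287458-40302186) also passed in both tables (adjusted p = 0.0454 and 0.000218) but in different orders. It was highest in TH17 cells in the Odc table (46.4 ± 7.56 CPM (SD, n = 4)) and lowest there in the Dohh table (26.0 ± 2.17 CPM (SD, n = 3)), overlapping Treg cells in both. The call in the Odc table had an adjusted p of 0.00047 with the replicate number within genotype as a block, was lost with no filter beyond 1 count (0.119) and with a mean count of at least 50 (0.0526), and was lost on leaving out any 1 of 16 of the 31 libraries (adjusted p 0.051 to 0.166), namely TH1 Odc WT replicates 1, 2 and 3, TH1 Odc KO replicate 3, TH2 Odc WT replicates 1, 2 and 3, TH2 Odc KO replicates 2 and 4, TH17 Odc WT replicates 1, 2 and 4, TH17 Odc KO replicate 4, Treg Odc WT replicate 2 and Treg Odc KO replicates 1 and 4.

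Odc1 (chr12:17544794-17551505) differed among the WT subsets of the Odc table (adjusted p = 0.000439), from 733 ± 89.0 CPM (SD, n = 4) in TH17 cells to 407 ± 60.4 CPM (SD, n = 4) in Treg cells, and neighbouring subsets in this order overlapped. In the Dohh table it also was lowest in Treg cells (406, 419 and 344 CPM), with every TH2 library (648, 634 and 575 CPM) above every TH17 library (562, 568 and 533 CPM) and adjusted p = 0.0542. Sms (chrX:157443855-157492287) was highest in Treg and lowest in TH17 cells in both tables, with means of 68.2 ± 7.19 CPM (SD, n = 4) and 45.3 ± 7.81 CPM (SD, n = 4) in the Odc table (adjusted p = 0.00644) and 40.9 ± 4.54 CPM (SD, n = 3) and 29.6 ± 1.40 CPM (SD, n = 3) in the Dohh table (adjusted p = 0.0539, and 0.0176 with DESeq2). Neighbouring subsets in this order overlapped, but for TH1 over TH17 cells in the Dohh table. For the proteins ODC, SRM and SMS, the study reports lower levels in TH17 and Treg cells than in TH1 and TH2 cells. The RNA of Odc1 and Sms did not follow that order. Srm (chr4:148591503-148594993) passed in the Dohh table (adjusted p = 0.00114), where TH1 and TH2 libraries had 81.7 to 138.7 CPM and TH17 and Treg libraries 41.2 to 53.3 CPM. It missed in the Odc table (adjusted p = 0.0659), where replicate 4 was the highest library of each WT subset, and reached 5.18e-05 with the replicate number within genotype as a block. The order of Srm in the Odc table was another one, with the highest mean in TH17 cells (60.7 ± 30.5 CPM (SD, n = 4)). TH2 and TH1 cells had means of 59.5 and 48.5 CPM. Treg cells had the lowest (26.9 ± 26.4 CPM (SD, n = 4)), and neighbouring subsets overlapped. The highest subset mean was 1.05 times the lowest for Oaz1 and 1.09 times for Oaz2 in the Odc table, and 1.36 and 1.4 times in the Dohh table. Oaz1 (chr10:80826656-80829290) passed in neither table (adjusted p = 0.977 and 0.288), and Oaz2 (chr9:65668001-65690300) passed in the Dohh table alone (adjusted p = 0.02, 0.0704 without TH1 Dohh WT replicate 2 and 0.195 with no filter beyond 1 count), with subset means from 37.0 ± 3.64 CPM (SD, n = 3) in TH1 to 52.0 ± 2.08 CPM (SD, n = 3) in TH17 cells. In the Dohh table Odc1 passed without any 1 of TH1 Dohh KO replicate 2, TH2 Dohh KO replicates 2 and 3, TH17 Dohh KO replicate 1 and Treg Dohh KO replicates 1 and 3, and Sms without any 1 of TH1 Dohh KO replicates 2 and 3, TH2 Dohh WT replicate 1, TH17 Dohh KO replicate 3, Treg Dohh WT replicate 2 and Treg Dohh KO replicates 2 and 3 (adjusted p 0.0236 to 0.0495 and 0.0305 to 0.0439). Srm passed in the Odc table without Treg Odc WT replicate 4 or TH1 Odc WT replicate 4 (adjusted p = 0.000137 and 0.0313).

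Deletion of Odc was then compared with WT in each subset. Srm, Amd1 and Azin1 were higher in libraries labelled Odc KO in all 4 subsets, and Oaz2 was lower in all 4. Azin2 fell in TH1 and TH2 cells and rose in Treg cells. Sms passed as higher in TH1 and TH2 cells alone, Odc1 passed as lower in TH17 cells alone, and Oaz1 passed in none. In a single comparison, 25.6% to 32.9% of all genes tested rose and 22.2% to 29.3% fell. The share that moved alike in all 4 subsets was not counted. Srm was 5.05, 4.803, 2.82 and 6.88 times its WT level in TH1, TH2, TH17 and Treg cells, and Amd1 2.86, 3.35, 1.87 and 2.46 times. At an adjusted p below 0.05, 6 of the 8 members were called in TH1, 6 in TH2, 5 in TH17 and 5 in Treg cells, where 56.8%, 59.2%, 47.8% and 59.8% of all genes tested were called. With a fold change over 2 as well, the thresholds of the study, 5, 4, 2 and 3 members were called against 21.4%, 25.1%, 15.6% and 24% of all genes. The members' median log2 fold change was 0.46, 0.32, -0.02 and 0.46, beside 0.02, -0.0019, 0.05 and 0.07 over all genes. The median size of the change, without its sign, was 1.11, 1.24, 0.58 and 0.78, beside 0.51, 0.58, 0.42 and 0.54. About as large a share of all genes was called in Treg cells as of the members, and a larger share of members than of all genes in the other subsets.

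**Figure D2:**
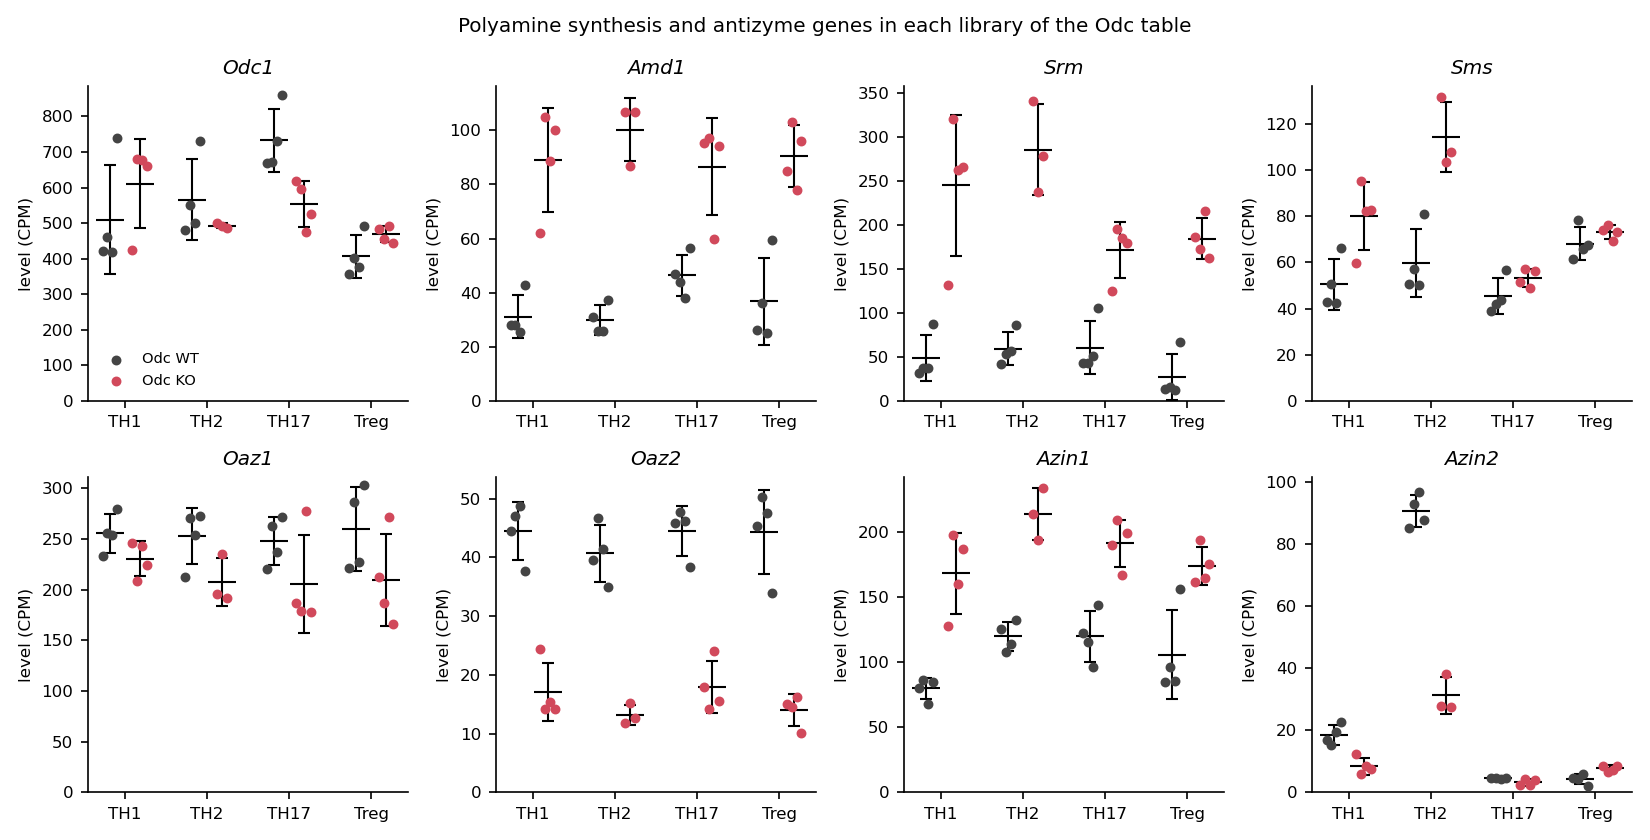
Level of each gene in CPM in every library of the Odc table (points), by subset and genotype, with the mean and SD of each group (black bars). Srm, Amd1 and Azin1 lie above WT and Oaz2 below it in all 4 subsets, and WT replicate 4 is the highest WT point for Srm in each.

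Srm had 31.8, 37.6, 37.4 and 87.3 CPM in WT libraries and 131, 320.5, 262 and 266 CPM in libraries labelled Odc KO in TH1 cells. The TH2 libraries had 42.1, 53.6, 56.3 and 86.2 CPM in WT and 341, 238 and 278 CPM in Odc KO. Every library labelled Odc KO lay above every WT library in both subsets, and WT replicate 4 was the highest WT library in each. The TH17 values were 42.6, 43.4, 50.8 and 106 CPM and 125, 195, 186 and 179.6 CPM, and those of Treg cells 13.2, 15.7, 12.3 and 66.4 CPM and 186, 172, 216 and 163 CPM. Here too the genotypes did not overlap. The log2 fold changes were 2.34 in TH1 cells (standard error 0.43, adjusted p = 8.55e-05), 2.26 in TH2 cells (standard error 0.45, adjusted p = 0.000142), 1.495 in TH17 cells (standard error 0.42, adjusted p = 0.00531) and 2.78 in Treg cells (standard error 0.44, adjusted p = 9.59e-06). Without Treg Odc WT replicate 4 the Treg value was 3.74.

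Amd1, which supplies the aminopropyl donor to both synthases, had 28.0, 28.0, 25.5 and 42.9 CPM in WT libraries and 62.1, 105, 88.5 and 100.1 CPM in libraries labelled Odc KO in TH1 cells and 31.0, 25.7, 25.8 and 37.3 against 107, 86.9 and 107 CPM in TH2 cells. In TH17 cells it had 46.9, 44.1, 38.2 and 56.3 CPM in WT and 95.4, 97.3, 59.7 and 94.1 CPM in Odc KO, and in Treg cells 26.1, 36.2, 25.2 and 59.7 and 85.1, 103, 77.8 and 95.9 CPM. The groups were apart in all 4 subsets, most narrowly in TH17 cells, where Odc KO replicate 3, the shallowest library of the table, was close to WT replicate 4. Its log2 fold changes were 1.51 in TH1 cells (standard error 0.23, adjusted p = 7.84e-06), 1.74 in TH2 cells (standard error 0.24, adjusted p = 1.81e-06), 0.90 in TH17 cells (standard error 0.22, adjusted p = 0.00164) and 1.30 in Treg cells (standard error 0.22, adjusted p = 1.85e-05). The intronless copy Amd2 had 1 to 18 counts a library, and adding its counts to Amd1 changed no call.

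Sms, the last enzyme of the pathway, rose in TH1 and TH2 cells. It had 42.9, 50.6, 42.5 and 66.2 CPM in WT libraries and 59.8, 95.5, 82.3 and 82.9 CPM in libraries labelled Odc KO in TH1 cells and 50.4, 57.4, 50.3 and 81.2 against 132, 103 and 108 CPM in TH2 cells, with WT replicate 4 the highest WT library of both. The log2 fold changes were 0.66 in TH1 cells (standard error 0.16, adjusted p = 0.000733) and 0.94 in TH2 cells (standard error 0.16, adjusted p = 3.13e-05). The genotypes did not overlap in TH2 cells, and in TH1 cells Odc KO replicate 1 lay below WT replicate 4. In the other subsets the values were 0.24 in TH17 cells (standard error 0.16, adjusted p = 0.212) and 0.10 in Treg cells (standard error 0.15, adjusted p = 0.576), and neither passed. Without the WT libraries numbered 4, a setting chosen after seeing the data, Sms passed in TH17 cells too (log2 fold change 0.36, adjusted p = 0.0158).

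The messenger RNA of Odc1 itself passed in TH17 cells alone. Its libraries had 421, 461, 418 and 739 CPM in WT and 424, 679.8, 678 and 659 CPM in Odc KO in TH1 cells, 482, 549.5, 499.7 and 732 and 499.6, 492 and 487 CPM in TH2 cells, and 357, 401, 376 and 493 and 482, 457, 493 and 443 CPM in Treg cells. The genotypes overlapped in these 3 subsets, and no adjusted p was under 0.05 (0.176, 0.339 and 0.282). In TH17 cells WT libraries had 669.5, 673, 731 and 859.9 CPM and Odc KO libraries 618, 595, 476 and 525 CPM, a fall without overlap (log2 fold change -0.40 (standard error 0.16, adjusted p = 0.0416)). That call was lost without any single one of WT replicates 3 and 4 and Odc KO replicates 2, 3 and 4 (adjusted p 0.0502 to 0.124), and Odc1 passed as higher in TH1 cells without WT replicate 4 (log2 fold change 0.49, adjusted p = 0.00609) or Odc KO replicate 1 (0.38, adjusted p = 0.0378). Without all WT libraries numbered 4, Odc1 passed as higher in TH1 (adjusted p = 0.000889) and Treg cells (log2 fold change 0.31, adjusted p = 0.0236) and remained called as lower in TH17 cells (0.0231).

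Oaz2 fell in every subset. WT libraries had 44.5, 47.1, 48.8 and 37.6 CPM in TH1 cells and Odc KO libraries 24.5, 14.2, 15.3 and 14.3 CPM. The TH2 values were 39.5, 46.7, 41.4 and 35.0 and 11.8, 15.2 and 12.7 CPM. No Odc KO library reached a WT library in either subset, and Odc KO replicate 1 was the highest in TH1 cells. In TH17 cells the values were 45.8, 47.6, 46.1 and 38.3 and 17.9, 14.2, 24.1 and 15.6 CPM, and in Treg cells 45.4, 50.3, 47.6 and 33.9 and 15.1, 14.6, 16.3 and 10.2 CPM, again without overlap. The log2 fold changes were -1.39 in TH1 cells (standard error 0.17, adjusted p = 1.05e-06), -1.62 in TH2 cells (standard error 0.19, adjusted p = 3.26e-07), -1.31 in TH17 cells (standard error 0.17, adjusted p = 2.12e-06) and -1.66 in Treg cells (standard error 0.17, adjusted p = 1.52e-08).

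Oaz1, the more abundant antizyme, did not pass in any subset, although its Treg value passed under several other settings. TH17 cells had 221, 263, 237 and 272 CPM in WT and 187, 179, 278 and 178 CPM in Odc KO libraries, and Treg cells 221, 286, 227 and 303 and 213, 187, 272 and 166 CPM. Its Odc KO means were 231 ± 17.6 CPM (SD, n = 4), 208 ± 24.1 CPM (SD, n = 3), 205 ± 48.5 CPM (SD, n = 4) and 209.5 ± 45.6 CPM (SD, n = 4) in TH1, TH2, TH17 and Treg cells, against WT means of 256, 253, 248 and 259.6 CPM (n = 4 each). The log2 values were -0.15 in TH1 cells (standard error 0.14, adjusted p = 0.383), -0.29 in TH2 cells (standard error 0.15, adjusted p = 0.114), -0.27 in TH17 cells (standard error 0.14, adjusted p = 0.113) and -0.31 in Treg cells (standard error 0.14, adjusted p = 0.0627). Odc KO replicate 3 was the highest Odc KO library in TH17 and Treg cells, and without it the adjusted p was 0.0099 and 0.00825 (log2 fold changes -0.45 and -0.46). It was also under 0.05 in TH2 cells without WT replicate 1 (0.0486) and in Treg cells without WT replicate 1 or 3 (0.0367 and 0.0428). With DESeq2, RLE scaling, total counts in place of TMM or no filter beyond 1 count Oaz1 also passed in Treg cells (adjusted p = 0.0227, 0.0274, 0.0246 and 0.0272), and in TH2 cells with only the 2 groups in the fit (0.0382).

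Of the antizyme inhibitors, Azin1 rose in all 4 subsets, from 80.3, 86.6, 68.2 and 84.7 CPM in WT TH1 libraries to 128, 198, 160.3 and 187 CPM in Odc KO ones, and from 126, 108, 114 and 133 to 214, 194 and 234 CPM in TH2 cells. TH17 cells had 123, 116, 96.7 and 144 CPM in WT and 190.2, 209.8, 167 and 199 CPM in Odc KO libraries, and Treg cells 84.8, 96.6, 85.5 and 156 and 162, 194, 165 and 176 CPM. No libraries overlapped, though WT replicate 4 of the Treg cells was close to the lowest Odc KO library. The log2 fold changes were 1.08 in TH1 cells (standard error 0.16, adjusted p = 6.09e-06), 0.83 in TH2 cells (standard error 0.17, adjusted p = 0.000127), 0.68 in TH17 cells (standard error 0.16, adjusted p = 0.000956) and 0.72 in Treg cells (standard error 0.16, adjusted p = 0.000291).

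Azin2 fell in TH1 and TH2 cells and rose in Treg cells. In TH2 cells it had 85.1, 93.0, 96.6 and 87.8 CPM in WT libraries and 28.0, 38.2 and 27.5 CPM in libraries labelled Odc KO, and in TH1 cells 16.8, 15.2, 19.6 and 22.7 and 12.2, 5.82, 8.44 and 7.42 CPM. The genotypes were apart in both, and the TH2 libraries labelled Odc KO still had more Azin2 than any library of the other subsets. In TH17 cells the values were 4.76, 4.68, 4.30 and 4.76 and 2.26, 4.34, 2.50 and 4.03 CPM, and in Treg cells 4.55, 4.34, 5.99 and 2.21 and 8.59, 6.51, 7.12 and 8.60 CPM, where every Odc KO library lay above WT. The log2 fold changes were -1.54 in TH2 cells (standard error 0.21, adjusted p = 1.3e-06), -1.13 in TH1 cells (standard error 0.21, adjusted p = 6.6e-05), -0.48 in TH17 cells (standard error 0.25, adjusted p = 0.119) and 0.84 in Treg cells (standard error 0.23, adjusted p = 0.00247), and TH17 cells alone did not pass.

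Dohh carries out the last step of hypusine formation, after polyamine synthesis. In the libraries labelled Dohh KO, Srm again rose and Oaz2 again fell in all 4 subsets, while Amd1 and Azin1 passed as higher in TH17 and Treg cells. Sms passed as higher in TH1, TH2 and TH17 cells, Odc1 in TH1 and Treg cells and Oaz1 in TH1 cells. Azin2 passed as lower in all subsets but TH17 cells. Srm was 3.08, 2.72, 2.11 and 4.89 times WT in TH1, TH2, TH17 and Treg cells, and Oaz2 0.534, 0.604, 0.611 and 0.583 times. At an adjusted p below 0.05 the calls were 6, 4, 5 and 6 of the 8 members, against 50%, 45.3%, 52% and 53.4% of all genes tested. Over 2-fold as well were 2, 2, 1 and 3 members, against 29.1%, 25.9%, 31.4% and 32.7%. The share of members over 2-fold was near that of all genes in TH1 and TH2 cells and below it in TH17 cells. The members' median log2 change without its sign (0.70, 0.48, 0.70 and 0.72) was at or below that of all genes (0.71, 0.62, 0.70 and 0.73). Without TMM scaling the median of all genes moved by -0.22 on the log2 scale in TH1 cells.

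**Figure D3:**
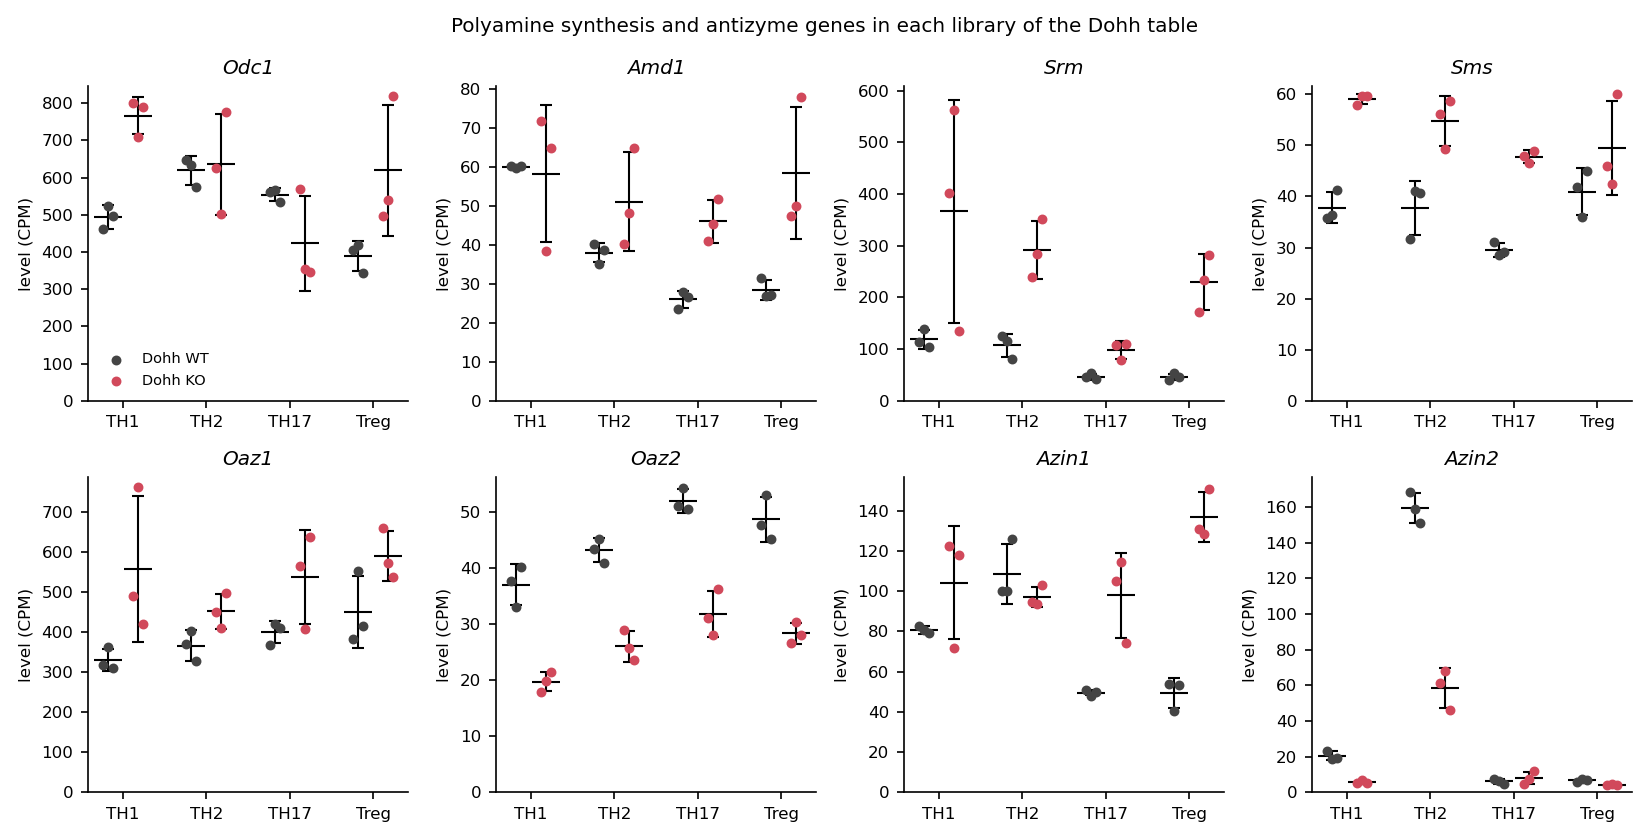
Level of each gene in CPM in every library of the Dohh table (points), by subset and genotype, with the mean and SD of each group (black bars). Oaz2 lies below WT in all 4 subsets, and for Srm 1 of the 3 TH1 libraries labelled Dohh KO, at 135.8 CPM, lies among the WT libraries.

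Srm had 113, 139 and 105 CPM in WT libraries and 401, 562 and 136 CPM in libraries labelled Dohh KO in TH1 cells, so that Dohh KO replicate 3 lay within the WT range. In TH2 cells it had 125, 115 and 81.7 and 240.2, 285 and 352 CPM. The values were 45.5, 53.3 and 41.7 and 108, 79.2 and 111 CPM in TH17 cells and 41.2, 53.1 and 46.4 and 173, 235 and 282 CPM in Treg cells. These 3 subsets showed no overlap. The log2 fold changes were 1.62 in TH1 cells (standard error 0.32, adjusted p = 0.000347), 1.44 in TH2 cells (standard error 0.32, adjusted p = 0.00118), 1.08 in TH17 cells (standard error 0.32, adjusted p = 0.00841) and 2.29 in Treg cells (standard error 0.33, adjusted p = 9.75e-06).

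Amd1 had 31.5, 27.0 and 27.1 CPM in WT libraries and 47.4, 49.9 and 78.0 CPM in libraries labelled Dohh KO in Treg cells and 23.7, 27.9 and 26.6 against 41.0, 45.2 and 51.8 CPM in TH17 cells. In TH1 cells the values were 60.1, 59.7 and 60.3 and 71.8, 38.3 and 64.7 CPM, and in TH2 cells 40.2, 35.2 and 38.8 and 40.2, 48.3 and 64.9 CPM. Dohh KO replicate 2 was the lowest in TH1 cells, where the genotypes overlapped. The log2 values were 1.03 in Treg cells (standard error 0.21, adjusted p = 4e-04), 0.82 in TH17 cells (standard error 0.21, adjusted p = 0.00319), 0.43 in TH2 cells (standard error 0.21, adjusted p = 0.106) and -0.04 in TH1 cells (standard error 0.21, adjusted p = 0.892). The myeloid markers summed to 4519 and 1461 CPM in TH17 Dohh KO replicates 2 and 3 and to 3060.2 and 1867 CPM in Treg Dohh KO replicates 2 and 3, against at most 134 CPM in any other library of the table. Without these 4 libraries, a setting chosen after seeing the data, the Treg and TH17 calls of Amd1 were lost (log2 fold changes 0.70 and 0.66, adjusted p = 0.061 and 0.0819), with 1 Dohh KO library left in each subset, assumed to vary like the other groups.

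Sms had 35.7, 36.4 and 41.3 CPM in WT and 57.9, 59.7 and 59.6 CPM in Dohh KO libraries of TH1 cells, 31.7, 41.0 and 40.7 and 56.1, 49.2 and 58.7 CPM in TH2 cells, and 31.2, 28.5 and 29.1 and 47.9, 46.5 and 49.0 CPM in TH17 cells. It rose in these 3 subsets without overlap, with log2 fold changes of 0.64 in TH1 cells (standard error 0.14, adjusted p = 0.000817), 0.53 in TH2 cells (standard error 0.14, adjusted p = 0.00438) and 0.69 in TH17 cells (standard error 0.14, adjusted p = 0.000461). In Treg cells the value was 0.27 (standard error 0.14, adjusted p = 0.109). Odc1 rose in TH1 cells, from 461, 525 and 497 CPM to 800.2, 709.5 and 790.2 CPM, and in Treg cells, from 406, 419 and 344 CPM to 498, 539.9 and 819.8 CPM. Both were without overlap, and Dohh KO replicate 3 was the highest in Treg cells. In TH2 cells Odc1 had 648, 634 and 575 and 627, 503 and 776 CPM and in TH17 cells 562, 568 and 533 and 569.5, 353 and 346 CPM. The log2 values were 0.63 in TH1 cells (standard error 0.20, adjusted p = 0.0128), 0.67 in Treg cells (standard error 0.20, adjusted p = 0.0083), 0.04 in TH2 cells (standard error 0.20, adjusted p = 0.898) and -0.39 in TH17 cells (standard error 0.20, adjusted p = 0.11). The Treg call was lost without WT replicate 3 or Dohh KO replicate 3 (adjusted p = 0.0717 and 0.151) and without the 4 libraries of high myeloid markers (0.268). A fall passed in TH17 cells without Dohh KO replicate 1 (adjusted p = 0.00928). Without the libraries of high myeloid markers, which leaves replicate 1 alone, the TH17 log2 value was 0.045 (adjusted p = 0.906). The TH1 call was lost without TMM scaling (log2 fold change 0.41, adjusted p = 0.113). It was also lost with only the 2 groups in the fit, where the log2 fold change was 0.65 (adjusted p = 0.0511).

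Oaz2 had 37.7, 33.1 and 40.3 CPM in WT libraries and 17.99, 19.9 and 21.4 CPM in libraries labelled Dohh KO in TH1 cells and 43.5, 45.1 and 40.9 against 29.0, 25.7 and 23.5 CPM in TH2 cells. The values were 51.1, 54.3 and 50.5 and 31.0, 28.1 and 36.3 CPM in TH17 cells and 47.7, 53.1 and 45.3 and 26.6, 30.4 and 28.0 CPM in Treg cells. Oaz2 did not overlap between genotypes in any subset of either table. Its log2 fold changes were -0.91 in TH1 cells (standard error 0.13, adjusted p = 1.76e-05), -0.73 in TH2 cells (standard error 0.13, adjusted p = 0.000176), -0.71 in TH17 cells (standard error 0.13, adjusted p = 0.000167) and -0.78 in Treg cells (standard error 0.13, adjusted p = 5.39e-05). Oaz1 rose in TH1 cells, from 317, 363 and 311 CPM to 491, 764 and 420.1 CPM. This log2 fold change was 0.76 (standard error 0.20, adjusted p = 0.00401). With only the 2 groups in the fit it was 0.78 and no longer called (adjusted p = 0.0669). In the other subsets it was 0.30 in TH2 cells (standard error 0.20, adjusted p = 0.228), 0.43 in TH17 cells (standard error 0.20, adjusted p = 0.0809) and 0.39 in Treg cells (standard error 0.20, adjusted p = 0.106), with 0.0292 in TH17 cells without Dohh KO replicate 2.

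Azin1 rose in Treg cells, from 53.7, 40.6 and 53.3 CPM to 131, 129 and 151 CPM, and in TH17 cells, from 50.7, 48.0 and 50.01 CPM to 105, 115 and 74.3 CPM. TH1 cells had 82.6, 80.7 and 79.0 and 122, 71.8 and 118 CPM and TH2 cells 99.9, 99.9 and 126 and 94.6, 93.6 and 103 CPM, and both overlapped. The log2 values were 1.47 in Treg cells (standard error 0.18, adjusted p = 1.48e-06), 0.98 in TH17 cells (standard error 0.18, adjusted p = 0.000172), 0.37 in TH1 cells (standard error 0.18, adjusted p = 0.096) and -0.16 in TH2 cells (standard error 0.18, adjusted p = 0.487). Without TH1 Dohh KO replicate 2, the lowest TH1 library, the TH1 value passed (log2 fold change 0.57, adjusted p = 0.00804). Azin2 fell in TH2 cells, from 168, 159 and 151 CPM to 61.4, 68.0 and 46.0 CPM, and in TH1 cells, from 23.4, 18.9 and 19.3 CPM to 5.01, 6.94 and 5.18 CPM. At the low levels of Treg cells it had 5.94, 7.29 and 6.99 and 4.09, 4.44 and 4.23 CPM, and in TH17 cells 7.43, 6.44 and 4.85 and 4.77, 7.63 and 11.9 CPM. The genotypes were apart in all but TH17 cells, and the log2 values were -1.45 in TH2 cells (standard error 0.22, adjusted p = 2.1e-05), -1.86 in TH1 cells (standard error 0.24, adjusted p = 3.84e-06), -0.66 in Treg cells (standard error 0.25, adjusted p = 0.0317) and 0.34 in TH17 cells (standard error 0.24, adjusted p = 0.24). The Treg call had an adjusted p of 0.05 to 0.0774 without any single one of WT replicates 2 and 3 and Dohh KO replicates 1 and 3, and of 0.0681 without the 4 libraries of high myeloid markers, where the log2 fold change was -0.75. The TH17 value passed without Dohh KO replicate 1 (0.0278). It was -0.39 (adjusted p = 0.339) without the libraries of high myeloid markers, which leaves replicate 1 alone.

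**Figure D4:**
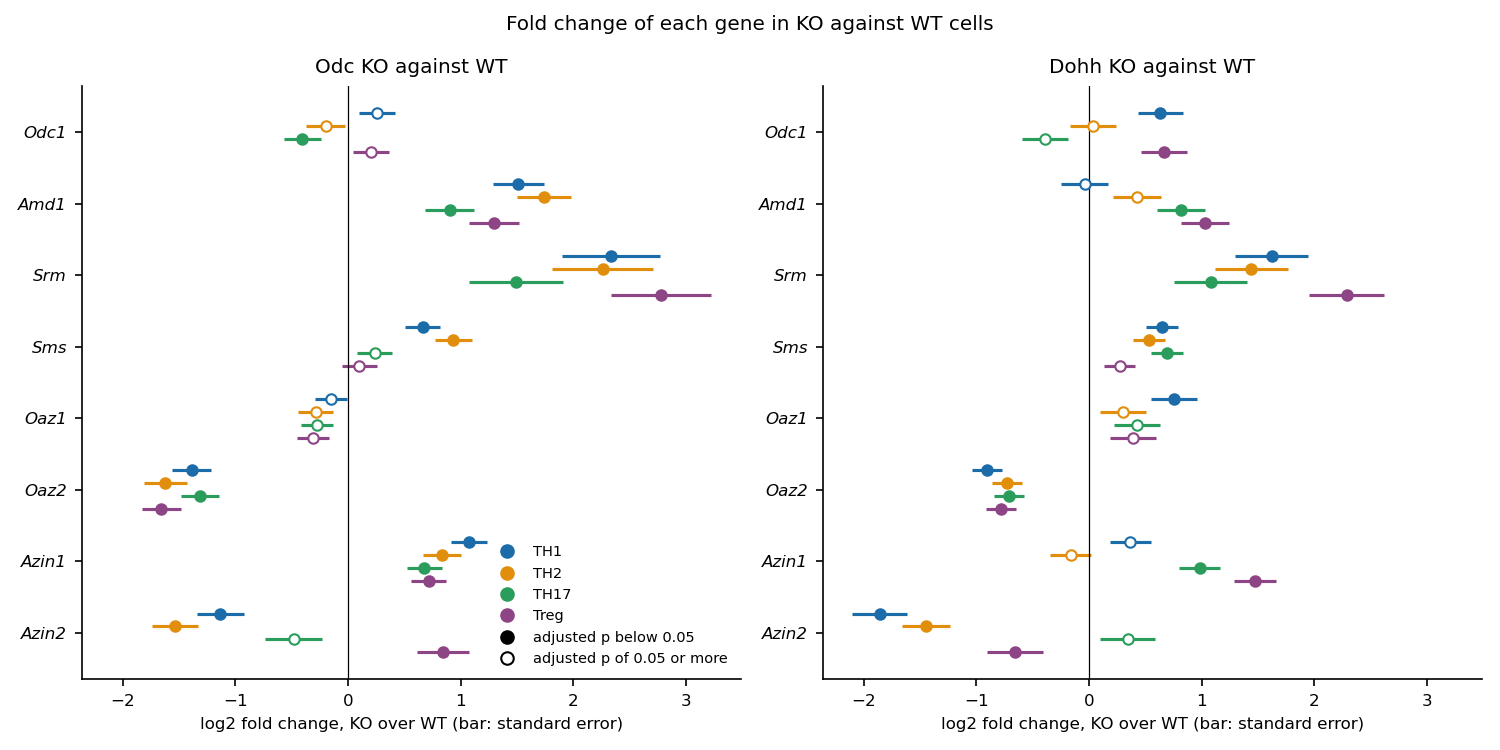
Log2 fold change of each gene, KO over WT, with its standard error, for the 4 subsets (color) and both deletions (panels). Filled points have an adjusted p below 0.05. Srm is to the right and Oaz2 to the left of 0 in all 8 comparisons.

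Whether the change with a deletion differed among the 4 subsets was asked with an interaction term. For Odc, Azin2 (adjusted p = 7.02e-06) and Sms (0.0132) passed, 2 of 8 members against 34.8% of all genes. Azin2 fell in TH1 and TH2 cells and rose in Treg cells, and Sms passed as higher in TH1 and TH2 cells. The other members had adjusted p of 0.0567 (Odc1), 0.155 (Amd1), 0.31 (Srm), 0.399 (Azin1), 0.537 (Oaz2) and 0.897 (Oaz1). Without Treg Odc WT replicate 4, Odc1, Amd1 and Srm passed too (adjusted p = 0.00365, 0.0422 and 0.00566), which made 5 of 8, and Odc1 also passed without any 1 of TH1 Odc WT replicate 4, TH1 Odc KO replicate 1 and TH2 Odc WT replicate 1 (up to 0.0483). With the replicate number within genotype as a block the same 3 genes were added (adjusted p = 0.00123, 0.00621 and 0.0028).

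For Dohh, the interaction passed for Azin2 (adjusted p = 0.000345), Azin1 (0.000495), Odc1 (0.0232) and Amd1 (0.049), 4 of 8 members against 17.9% of all genes. Azin1 ranged from a log2 value of -0.16 in TH2 to 1.47 in Treg cells, and Azin2 from -1.86 in TH1 to 0.34 in TH17 cells. Without the libraries of high myeloid markers the TH17 value of Azin2 was -0.39, and its interaction was still called (adjusted p = 0.0272). Srm (0.215), Sms (0.347), Oaz1 (0.579) and Oaz2 (0.817) did not pass. The calls of Odc1 and Amd1 were lost, leaving 2, without any single one of TH1 WT replicate 1, TH17 WT replicates 1 and 2, TH17 Dohh KO replicates 2 and 3 and Treg WT replicate 3, without the 4 libraries of high myeloid markers (adjusted p = 0.239 and 0.342) and without TMM scaling. Amd1 alone was lost without any 1 of 13 further libraries (TH1 Dohh WT replicates 2 and 3, TH1 Dohh KO replicate 2, TH2 Dohh WT replicates 1, 2 and 3, TH2 Dohh KO replicates 1 and 2, TH17 Dohh WT replicate 3, Treg Dohh WT replicates 1 and 2 and Treg Dohh KO replicates 2 and 3), with adjusted p up to 0.103. Srm passed without TH1 Dohh KO replicate 3 (0.0145).

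The effects of the 2 deletions were set against each other in a single fit of both tables, in which each effect is taken against the WT libraries of its own table. At an adjusted p below 0.05, 3 of 8 members differed in TH1, 3 in TH2, 2 in TH17 and 4 in Treg cells, against 18.5%, 15.7%, 21.4% and 26.2% of all genes. Amd1 rose more with loss of Odc, by a log2 difference of 1.53 in TH1 cells (standard error 0.31, adjusted p = 0.000488) and 1.33 in TH2 cells (standard error 0.32, adjusted p = 0.00319). Its other differences were 0.03 in TH17 cells (standard error 0.31, adjusted p = 1) and 0.23 in Treg cells (standard error 0.31, adjusted p = 0.642). Oaz2 fell more with loss of Odc, with log2 differences of -0.88 in TH2 cells (standard error 0.24, adjusted p = 0.0102), -0.65 in TH17 cells (standard error 0.23, adjusted p = 0.0371) and -0.92 in Treg cells (standard error 0.23, adjusted p = 0.0023), and had -0.50 in TH1 cells (standard error 0.24, adjusted p = 0.133).

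Oaz1 was lower with loss of Odc relative to loss of Dohh, with log2 differences of -0.93 in TH1 cells (standard error 0.24, adjusted p = 0.00505), -0.75 in TH17 cells (standard error 0.24, adjusted p = 0.0212) and -0.74 in Treg cells (standard error 0.24, adjusted p = 0.0188), and -0.57 in TH2 cells (standard error 0.25, adjusted p = 0.113). Azin1 differed in both directions: it rose more with loss of Odc in TH1 and TH2 cells, by 0.69 in TH1 cells (standard error 0.24, adjusted p = 0.0348) and 1.01 in TH2 cells (standard error 0.24, adjusted p = 0.00276), and more with loss of Dohh in Treg cells (-0.79 (standard error 0.23, adjusted p = 0.00979)). Azin2 differed in Treg cells, where it rose with loss of Odc and fell with loss of Dohh (1.46 (standard error 0.35, adjusted p = 0.00133)). No difference passed for Srm, Sms or Odc1. For Srm the differences were 0.69 in TH1 cells (standard error 0.56, adjusted p = 0.435), 0.84 in TH2 cells (standard error 0.58, adjusted p = 0.361), 0.37 in TH17 cells (standard error 0.57, adjusted p = 0.717) and 0.47 in Treg cells (standard error 0.57, adjusted p = 0.6), which the standard errors do not tell from 0. Those of Sms ran from -0.51 to 0.42 and those of Odc1 from -0.50 to -0.06. Without the WT libraries numbered 4 of the Odc table, the differences of Srm were 1.13 in TH1 (adjusted p = 0.0389) and 1.36 in Treg cells (0.00927) and that of Sms 0.55 in TH2 cells (0.0361), all called, a setting chosen after seeing the data. Without the 4 libraries of high myeloid markers, Oaz1 and Oaz2 in TH17 and Azin1 in Treg cells were no longer called (adjusted p = 0.0687, 0.204 and 0.0552). With 1 Dohh KO library left in each of these subsets, the log2 differences were -0.82, -0.61 and -0.76, close to those with all libraries.

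Several of these calls rested on single libraries. Azin1 in TH1 cells was lost without any of 6 libraries (TH1 Odc WT replicate 3, Odc KO replicates 2 and 4, Dohh WT replicates 1 and 2 and Dohh KO replicate 2, adjusted p up to 0.174), Oaz2 in TH17 cells without any of 9 (TH17 Odc WT replicates 1, 2 and 3, Odc KO replicates 2 and 4, all 3 Dohh WT replicates and Dohh KO replicate 3, up to 0.113), and Oaz1 in Treg cells without any of 4 (Treg Odc KO replicate 4, Dohh WT replicates 1 and 3 and Dohh KO replicate 1, up to 0.0689). Oaz1 was lost in TH1 cells without TH1 Dohh KO replicate 2 (0.0659) and in TH17 cells without Dohh WT replicate 1 or Dohh KO replicate 3 (up to 0.089). Calls were gained for Oaz2 in TH1 cells without TH1 Odc KO replicate 1 (0.0156), Sms in TH2 cells without TH2 Odc WT replicate 4 (0.0479), Srm in Treg cells without Treg Odc WT replicate 4 (0.0358), and Azin2 in TH17 cells without TH17 Odc KO replicate 2, TH17 Dohh KO replicate 1 or Treg Odc WT replicate 4 (0.0134 to 0.0463). Amd1 and Azin1 in TH2, Oaz2 in TH2 and Treg, Amd1 in TH1, and Azin1 and Azin2 in Treg cells kept their calls without any single library.

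**Figure D5:**
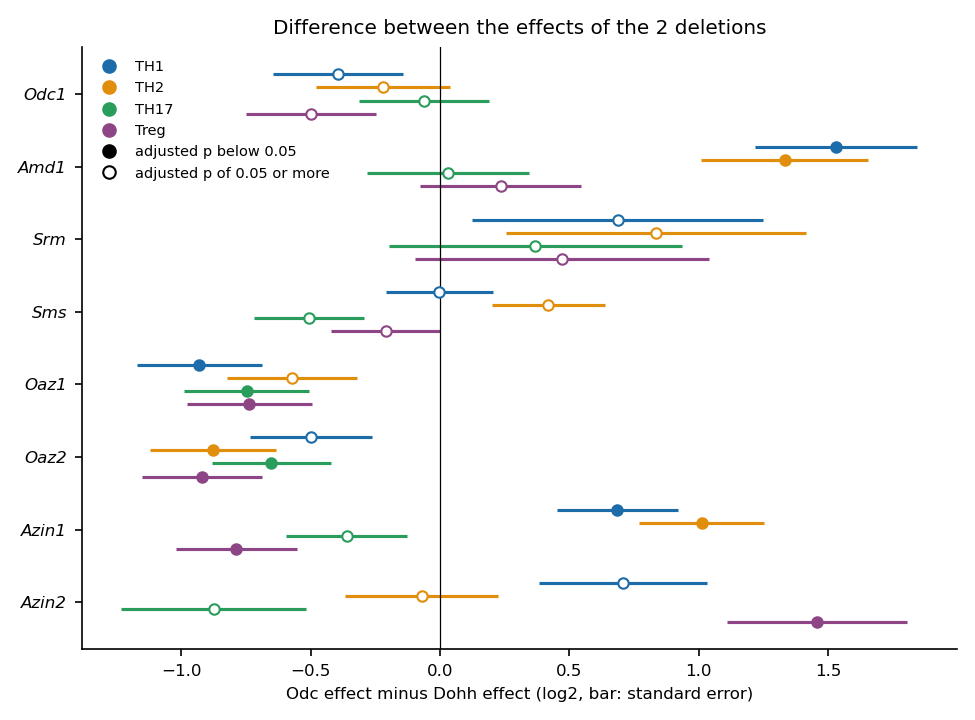
Odc effect minus Dohh effect on the log2 scale for each gene and subset (color), with its standard error. Filled points have an adjusted p below 0.05. Amd1 is filled and to the right of 0 in TH1 and TH2 cells, and Oaz1 and Oaz2 lie to the left in all 4 subsets, each filled in 3 of them (Oaz1 not in TH2 and Oaz2 not in TH1 cells).

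The rest of the pathway was followed as 4 lists, by counts and medians, to be read beside the 25.6% to 32.9% of all genes that rose and 22.2% to 29.3% that fell in a comparison with loss of Odc, and the 23.8% to 28.4% and 21.5% to 25% with loss of Dohh. Of 12 genes of polyamine breakdown and transport, the acetyltransferase, oxidases and carriers that remove or move polyamines, 10 were tested, and 2 to 5 rose and 3 to 4 fell in a comparison with loss of Odc, with 2 to 3 in each direction with loss of Dohh (medians -0.17 to 0.09 and -0.21 to 0.16). The hypusine pathway, which uses spermidine, had rises and no falls: 2 to 4 of its 4 genes rose and 0 fell in each comparison of either deletion, with a median log2 fold change of 0.55 to 1.001 for Odc and 0.61 to 1.14 for Dohh, beside -0.0019 to 0.07 and 0.01 to 0.025 over all genes. Dohh itself is in that list. Of 15 genes that supply ornithine and S-adenosylmethionine or salvage the by-product of the synthases, 14 were tested, and 3 to 8 rose and 2 to 6 fell with loss of Odc, and 4 to 7 rose and 0 to 2 fell with loss of Dohh (medians 0.08 to 0.38 and 0.0071 to 0.68). Myc is a known activator of Odc1. The last list held 9 genes: Myc, Mycn, Max, Mxd1, Mxd3, Mxd4, Mxi1 and Mnt of its network, and Psmc5 for antizyme-dependent decay. Of these, 1 to 3 rose and 3 to 4 fell with loss of Odc, and 2 to 3 rose and 3 to 4 fell with loss of Dohh (medians -0.27 to 0.01 and -0.34 to 0.05). The list pools genes of unlike roles, so its counts and medians give no direction of Myc activity.

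Promoter windows of 300 bases (250 before the start and 50 after it, RefSeq, GRCm38.p6) were given for 5 of the 8 members, 6 windows in all. The E-box that Myc and Max bind, CACGTG, which reads the same on both strands, was in 1 of the 6, a window of Sms, with its first base at -196 from the start, and in 7.15% of the 32851 promoter windows of the same length. On both strands, CCAAT was in 2 of the 6 (Oaz1 and Sms, 37.4% of all windows), TGACG in 3 (Odc1, Amd1 and Oaz1, 20.8%) and the GC box GGGCGG in 4 (Odc1, Amd1, Oaz2 and a window of Sms, 35.7%). A match of letters is no evidence of a bound factor, and sites outside these windows were not searched.

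Other genes were ranked by how like their pattern was to that of each member, as the mean over both tables of Pearson's r across the 8 group means of log2 CPM, among 12894 genes. This is a description of 8 points a table that share libraries. Nearest to Srm were Nomo1 (0.991), Rrp9 (0.991) and Armc6 (0.988), to Oaz2 Nipal3 (0.983), Ccni (0.98) and Ccng2 (0.979), and to Amd1 Urb1 (0.965), Slc25a32 (0.953) and Alg8 (0.944). Nearest to Azin2 were Mmp7 (0.959), Pomgnt2 (0.955) and Mapk12 (0.945), to Azin1 Ung (0.95), Rmi2 (0.949) and Purb (0.94), and to Sms Cbx1 (0.95), Nrros (0.927) and Gcat (0.924). Odc1 and Oaz1 had weaker matches, Plekho2 (0.916), Zc3h13 (0.824) and Arf1 (0.809) for Odc1 and Oaz1-ps (0.906), Cdk5rap1 (0.857) and Mvk (0.847) for Oaz1. Oaz1-ps, an annotated pseudogene of Oaz1, had 0.817% to 2.3% of the counts of Oaz1 in a library, and reads may be split between the pair. The copy Sms-ps had 0% to 7.28% of those of Sms.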

How the data were processed

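The values are raw counts of reads per gene, as deposited by the authors in 1 table for each deletion, with samples not pooled. Per the study's methods and the submitters' processing notes, poly(A) RNA libraries (TruSeq stranded mRNA) were processed with deepTools, mapped with STAR to mm10, counted with featureCounts and tested with DESeq2. Versions, the annotation release and the strand setting are not given in the sources used here, so that genes overlapping on either strand cannot be told apart.

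Counts were tested with edgeR 4.0.16 (R 4.3.3, limma 3.58.1): of 47937 genes, filterByExpr kept 13839 (Odc) and 13897 (Dohh), followed by TMM scaling, 1 mean per group over the 8 groups of a table, robust quasi-likelihood tests and Benjamini-Hochberg adjustment over all genes tested. Subsets were compared by tests of 3 degrees of freedom, and the deletions in a joint fit of both tables. Calls had an adjusted p below 0.05, and where stated a fold over 2. Standard errors were derived from the test, as the log2 fold change without its sign over the square root of the quasi-likelihood F statistic. Alternatives were other scalings and filters, DESeq2 1.42.0, replicate blocks, only the 2 groups compared, summed Amd1 and Amd2 counts, an adjusted p below 0.01, and each library left out. On simulated counts with known changes, edgeR recovered 63 of 100 2-fold and 91 of 100 4-fold changes for TH1 Odc, with 6 false calls among 13309 genes, and 57 and 88 of 100 for TH1 Dohh, with 9 among 13407. Of 2-fold changes it recovered fewer in the interaction tests (44 of 100 for Odc and 33 of 100 for Dohh) and in the difference between deletions (25 of 90, TH1). The simulated counts had a spread that was set, not fitted to these libraries. Genes were changed in the TH1 KO group alone, and libraries were drawn independently. The rates therefore need not hold for these data.

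All 8 members are named, with copies that could share their reads and the 3 genes most like each. Members and lists were chosen with earlier results of these data known. The labels number the replicates but name no animal, and the study's methods state that littermates were compared without tying a number to a litter. WT libraries of the Odc table with the same number deviated together across subsets (r 0.206 to 0.576, 24 of 24 pairs over 0.1; 15 of 18 in the Dohh table), and values with the number within genotype as a block stand beside the results of the Odc table they change; a block on the number alone is given in the closing section. No 2 libraries of a group agreed within sampling noise (chi-square per gene 2.61 to 152 over 69 pairs). P-values measure the spread between these libraries. Figures were drawn with matplotlib 3.10.9 in Python 3.11.15.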

Additional observations from a re-analysis of the deposited data

Results flagged for a closer look

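Of 56 gene and group combinations with 4 libraries, 10 had a library whose gap to the next was over the 95% limit of Dixon's test, where chance gives about 1 in 20. In 6 of the 10 it was WT replicate 4 of the Odc table: Srm at 87.3 CPM in TH1, 106 CPM in TH17 and 66.4 CPM in Treg cells, Amd1 at 42.9 CPM and Odc1 at 739 CPM in TH1 cells, and Azin1 at 156.5 CPM in Treg cells, each the highest of its group. TH1 Odc KO replicate 1 had the lowest Odc1 (424 CPM) and the highest Oaz2 (24.5 CPM) of its group. TH17 Odc KO replicate 3 had the lowest Amd1 (59.7 CPM) and the highest Oaz1 (278 CPM).

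By the interaction test (edgeR, adjusted over all genes), the change with loss of Odc differed among subsets for Azin2 (adjusted p = 7.02e-06) and Sms (0.0132), and that with loss of Dohh for Azin2 (0.000345), Azin1 (0.000495), Odc1 (0.0232) and Amd1 (0.049). With the replicate number within genotype as a block, Odc1, Amd1 and Srm also passed for loss of Odc. The change with loss of Odc differed from that with loss of Dohh for Amd1 (adjusted p = 0.000488 in TH1 and 0.00319 in TH2 cells), Azin1 (0.0348 in TH1, 0.00276 in TH2 and 0.00979 in Treg cells), Oaz1 (0.00505 in TH1, 0.0212 in TH17 and 0.0188 in Treg cells), Oaz2 (0.0102 in TH2, 0.0371 in TH17 and 0.0023 in Treg cells) and Azin2 (0.00133 in Treg cells).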

How the results depend on the processing

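Of 960 recomputed fold changes, 914 kept their direction and their side of the threshold, 23 passed it anew, 18 no longer passed and 5 changed sign. The sign changed for Amd1 in TH1 Dohh KO (log2 fold change -0.19 to 0.18 with a library left out), Odc1 in TH2 Dohh KO (-0.13 to 0.18) and, without the 4 libraries of high myeloid markers, Odc1 (0.045) and Azin2 (-0.39) in TH17 Dohh KO, and none of these was called in the first place. The number of member changes called stayed between 21 and 25 for Odc (22 as reported) and between 17 and 23 for Dohh (21), and over 2-fold between 12 and 16 (14) and between 7 and 9 (8). Members that differed among WT subsets numbered 4 to 6 (Odc, 5) and 4 to 7 (Dohh, 5), and differences between the deletions 9 to 15 (12). For the interaction in the Odc table the 2 calls became 4 with the replicate block, 5 with the block within genotype and 5 without the WT libraries numbered 4, and were 2 to 5 with a library left out. In the Dohh table the 4 calls became 2 with total counts in place of TMM and 2 without the libraries of high myeloid markers, and were 2 to 5 with a library left out. The causes were not tested. Whether same-numbered WT and KO libraries come from 1 litter is not given in the sources used here, and their deviations within a subset did not all go together (7 of 15 correlations over 0.1 in the Odc table and 1 of 12 in the Dohh table). Blocking on it added Oaz1 in Treg cells with loss of Odc (adjusted p = 0.0402), Srm among the WT subsets of the Odc table (0.00628) and Sms among those of the Dohh table (0.039), Odc1 and Amd1 to the Odc interaction (0.0139 and 0.0266) and Sms in TH17 cells to the differences (0.0334), and changed no other call. Within genotype it also added Odc1 among the WT subsets of the Dohh table (0.0445). DESeq2 added Srm among the WT subsets of the Odc table (0.0472), Odc1 and Sms among those of the Dohh table (0.022 and 0.0176), Odc1 to the Odc interaction (0.0338), Azin1 in TH1 Dohh KO (0.0495) and Azin2 in TH17 cells to the differences (0.0484). A mean count of at least 50 added Srm (0.0458), Odc1 (0.0489) and Sms (0.0441) among WT subsets and Odc1 to the Odc interaction (0.0445). Total counts added Oaz1 in TH17 Dohh KO (0.0261) and Azin2 in TH1 cells to the differences (0.0218), and a fit of only the 2 groups Amd1 in TH2 Dohh KO (0.0456). RLE scaling added Sms among the WT subsets of the Dohh table (0.0455) and lost Amd1 from the Dohh interaction (0.053). Without a filter the differences of Azin1 in TH1 and Oaz2 in TH17 cells were lost (0.0775 and 0.109). Without the libraries of high myeloid markers Odc1 and Sms passed among the WT subsets of the Dohh table (0.0142 and 0.0482). Of 128 group levels, 118 moved by less than 1 SD without TMM. The sets of libraries left out together were chosen after seeing the data.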
